A study of Rattus norvegicus with 12 samples.

Results

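The piRNA names described here were listed in rat liver 48 hours after partial hepatectomy and in no other library of the study. Members were selected on their deposited read counts: a name had at least 1 read in 48h replicate 1 or 48h replicate 2 and 0 reads in the other 10 libraries. The rule found 227 names among the 701 listed in the 12 libraries. Their absence before surgery, at 24h and at 168h is therefore what chose them and is no finding. They were rare: the 227 names held 386 reads in all, and no name had more than 8 reads in a library.

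Piwi-interacting RNAs (piRNAs) are small RNAs that are loaded into PIWI proteins and guide them to matching transcripts, above all those of transposons. They are made from long single-stranded precursors, do not need Dicer, and act mainly in germ cells, where they keep mobile elements silent. In liver and other somatic tissues they are far scarcer, and a listed name shows that reads matched an entry of a piRNA database, not that a PIWI protein bound them. Partial hepatectomy removes part of the liver, and the remnant then regrows by division of its remaining cells, hepatocytes first and other liver cells later.

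All libraries came from liver of Fischer-344 (F-344) rats, an inbred strain, and were small RNA libraries made from total RNA. The pre_PH group was normal liver of sham-operated animals (6 libraries), and the 24h, 48h and 168h groups were liver in the regeneration phase after partial hepatectomy (2 libraries each). No genetic change, drug or age of the animals was given in the labels, nor whether each library was from its own rat, so p-values measure a spread between libraries that may be technical. The libraries held between 20741811 reads (48h replicate 1) and 31467460 reads (48h replicate 2), and between 120844 and 351818 reads in the listed piRNA rows. The tables list piRNA names only, so no liver marker could be read, and in whole tissue a change in cell makeup and a change in RNA per cell cannot be told apart.

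The 48h libraries contained several times more names listed only in their group than the other libraries did. At 48h, 96 such names were listed in replicate 1 and 164 in replicate 2. Applying the same rule to the other groups gave 101 names listed only in pre_PH, spread over 6 libraries with 8 to 29 names each. It gave 14 names only at 24h, with 9 and 5 in the replicates, and 38 only at 168h, with 21 and 17. Group-only names were 29.3% and 36.8% of all names listed in the 48h libraries, against 3.91% to 13.9% in the other 10. The 48h libraries also listed more names in all: 328 and 446, against 128 to 216 in the other 10. Longer 48h lists leave fewer names to the group-only lists of the other groups. These counts come from the values that define the lists and carry no test.

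The numbers of the 48h libraries were close to each other at equal depth. With replicate 2 reduced to 120844 piRNA reads, the lowest total of the series, 94.2 of its 164 members were expected to be still listed, beside the 96 of replicate 1. With all 12 libraries reduced to that total, the expected numbers of group-only names were 186 at 48h, 91.2 in pre_PH, 16.9 at 24h and 40.1 at 168h. The pre_PH number pools 6 libraries and the others 2 each. Over all names, members included, 328 and 330 were expected in 48h replicates 1 and 2 at that depth, against 110 to 192 in the other 10. Counted for each library on its own, 63 and 131 names were found in a single 48h library and nowhere else, against 5 to 23 names in each of the other 10.

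The members' reads were a small and similar part of both 48h libraries. In replicate 1 they numbered 143, or 0.118% of the listed piRNA reads (95% Clopper-Pearson interval 0.0997 to 0.139%). In replicate 2 they numbered 243, or 0.0966% (0.0848 to 0.109%). Relative to all reads of the library, the members reached 6.89 RPM (reads per 1000000 library reads, a total whose meaning is taken from the name of the authors' column) in replicate 1 (95% Poisson interval 5.81 to 8.12) and 7.72 RPM in replicate 2 (6.78 to 8.76). The group-only names of the other groups held 0.342 to 1.46 RPM in each library. The intervals of the 48h libraries overlapped each other on both scales. Such intervals and limits describe error in the counting of reads alone. For molecules they may be too narrow, because PCR copies of 1 molecule are counted as separate reads.

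**Figure D1:**
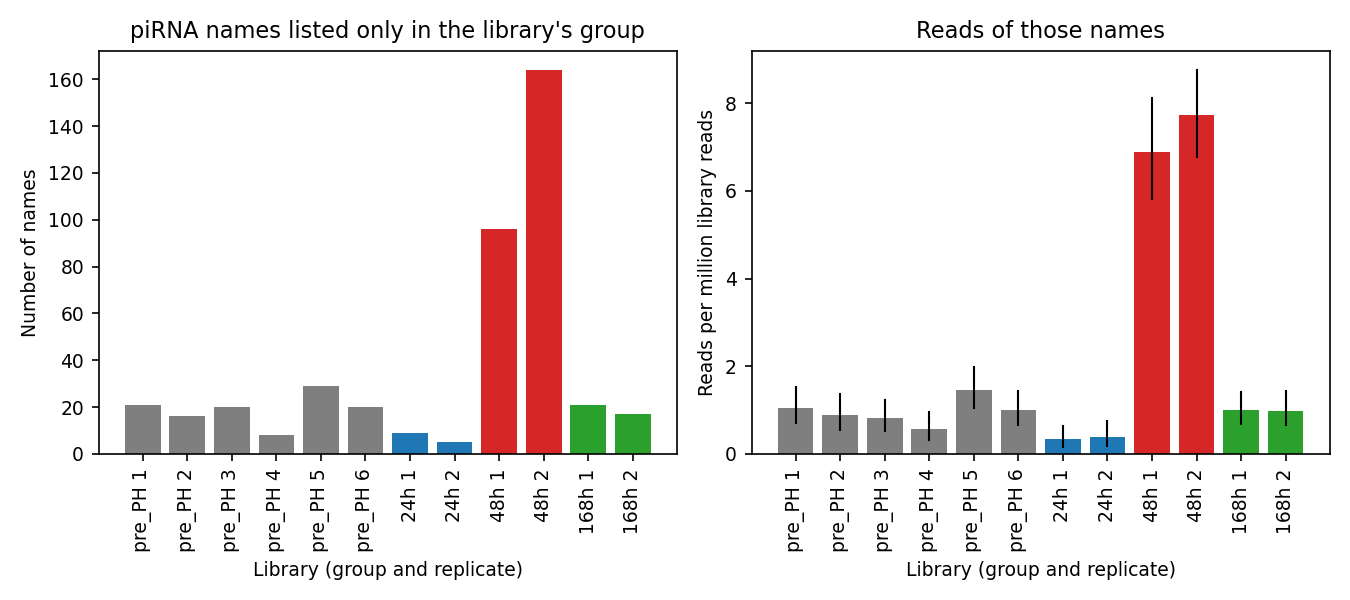
Left, the number of piRNA names in each library that were listed only in that library's group; right, the reads of those names in RPM, with 95% Poisson intervals as black lines. Bars are single libraries, coloured by group; the 48h libraries stand at 96 and 164 names and at 6.89 and 7.72 RPM, and the other 10 at 5 to 29 names and at 0.342 to 1.46 RPM, where the names were chosen by the same counts.

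Most members were seen once and in one library. Of the 227 names, 137 (60.4%) had a single read in all, 59 had 2 reads, 22 had 3 or 4 and 9 had 5 or more. Names with a single read held 35.5% of the members' reads. Single-read names made up a like part of the names listed only in pre_PH (60.4%) and only at 168h (55.3%), and 71.4% of the 14 names listed only at 24h. The 48h list was longer than these and reached higher counts: the highest summed count was 10 reads at 48h, against 4 in pre_PH and 3 at 24h and at 168h.

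A minority of the members was found in both 48h libraries. The 33 names present in both were 14.5% of the members, 34.4% of those listed in replicate 1 and 20.1% of those in replicate 2. They held 119 of the 386 reads (30.8%). Another 63 names were listed in replicate 1 alone and 131 in replicate 2 alone. With replicate 2 reduced to 120844 piRNA reads, 20.6 names were expected in both. The same share over all names of the 48h libraries is not given here, so whether 14.5% is low for names this rare was not tested. No name listed only at 24h or only at 168h was found in both libraries of its time, and 12 of the 101 names listed only in pre_PH were found in 2 or more of its 6 libraries.

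By construction the 33 shared names had both 48h values above all other libraries. Across all 701 names, 18.3% had both 48h values, in RPM, above every other library, so values of this kind were common at 48h well beyond the members. The same count was 0.143% of names for the 24h libraries and 0.713% for the 168h libraries. Since the rule used this contrast, nothing is read from it about the members.

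Members with 3 or more reads in one 48h library, which were few, were found in the other one in a larger part than those with 1 read. Of those with 1 read in replicate 1, 18 of 62 were also listed in replicate 2. With 2 reads it was 11 of 27, and with 3 or more 4 of 7. Seen from replicate 2, 19 of 112 names with 1 read were also listed in replicate 1, 7 of 38 with 2 reads and 7 of 14 with 3 or more. Of the 33 shared names, 12 had 1 read in each library and 8 had 2 or more in each.

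**Figure D2:**
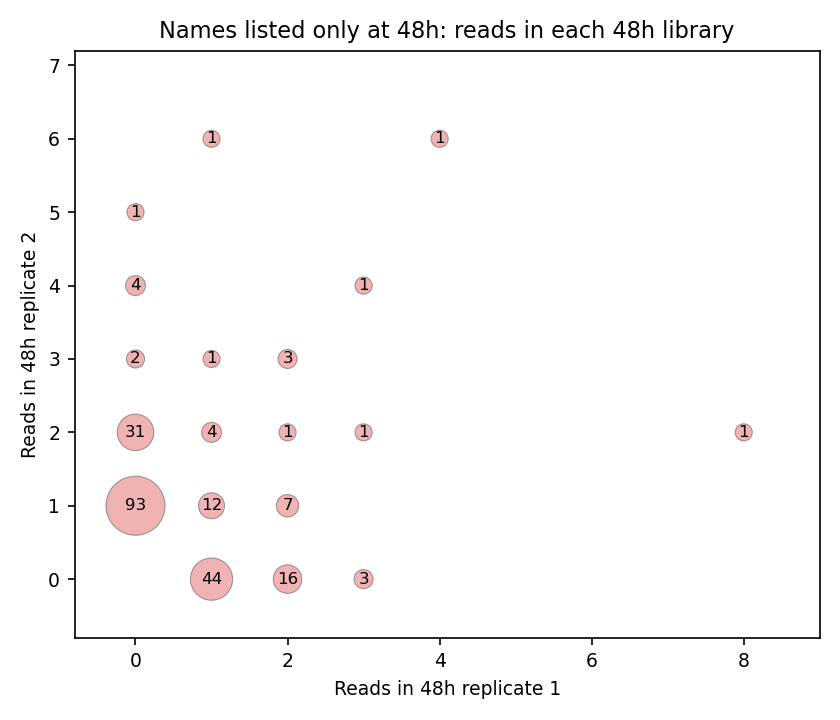
Each circle is a combination of read counts in 48h replicate 1 (horizontal axis) and 48h replicate 2 (vertical axis), with its area growing with the number of names, which is printed in it. The circles on the axes hold the 131 names seen only in replicate 2 and the 63 seen only in replicate 1; the 33 names inside the axes were seen in both.

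The leading member, rno_piR_010734, had 4 reads in replicate 1 and 6 in replicate 2. These were 0.193 and 0.191 RPM, nearly equal on this scale, though counts this low cannot show that the levels were equal. The reads were of 3 and 5 distinct sequences, the most of any member when summed over the libraries. Pooled over both libraries its level was 0.192 RPM (95% Poisson interval 0.0918 to 0.352). Its 0 reads in the other 10 libraries, by which it was chosen, allow up to 0.0111 RPM there (3 reads over their summed totals).

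The member with the highest count in a single library was rno_piR_019288, with 8 reads in replicate 1 (0.386 RPM) and 2 in replicate 2 (0.0636 RPM). It matched rno_piR_010734 in its 10 summed reads but had most of them in replicate 1, where they were of 5 distinct sequences. In rno_piR_017138 the counts were 3 and 4, with 2 and 4 distinct sequences. Those of rno_piR_012015 were 1 and 6, with 1 and 4 distinct sequences, so most of its reads were in replicate 2. Each of these 2 names had 7 reads in all, or 0.134 RPM pooled (95% Poisson interval 0.0539 to 0.276). Whether the libraries differed in rno_piR_019288 or rno_piR_012015 was not tested.

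Another 5 names had 5 reads in all, or 0.0958 RPM pooled (0.0311 to 0.223). The counts of rno_piR_009660 were 3 in replicate 1 and 2 in replicate 2. Those of rno_piR_022557, rno_piR_027163 and rno_piR_037274 were 2 and 3 each, or 0.0964 and 0.0953 RPM, again nearly equal on this scale. The fifth, rno_piR_009750, was unseen in replicate 1 and had 5 reads of 4 distinct sequences in replicate 2. A count of 0 in replicate 1 allows up to 0.145 RPM, and its level in replicate 2, 0.159 RPM from 5 reads, was little above that limit. Whether the libraries differed in this name was not tested.

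The 6 names with 4 reads were less even between the libraries. The counts of rno_piR_036821 were 2 and 2, and those of rno_piR_002863 were 1 and 3. The other 4, rno_piR_006700, rno_piR_017491, rno_piR_023339 and rno_piR_032983, had all 4 reads in replicate 2 (0.127 RPM), which lies under the 0.145 RPM that a count of 0 in replicate 1 allows. Their absence from replicate 1 was thus not a detectable difference at this depth. Behind the 4 reads lay 3, 2, 2 and 3 distinct sequences.

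The names with 3 reads numbered 16, and 11 of them were found in both libraries. The 10 of these that come first by name had 2 reads in one library and 1 in the other. In rno_piR_005357, rno_piR_008806, rno_piR_010519, rno_piR_016387, rno_piR_023867, rno_piR_024933 and rno_piR_033296 the 2 reads were in replicate 1, and in rno_piR_006532, rno_piR_014936 and rno_piR_019622 in replicate 2. In the last 3 the 2 reads were distinct sequences, as they were in rno_piR_005357 and rno_piR_023867. The other 5 of the 10 showed 1 sequence read 2 times. Together the 25 leading names held 113 reads, 29.3% of the members' reads.

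**Figure D3:**
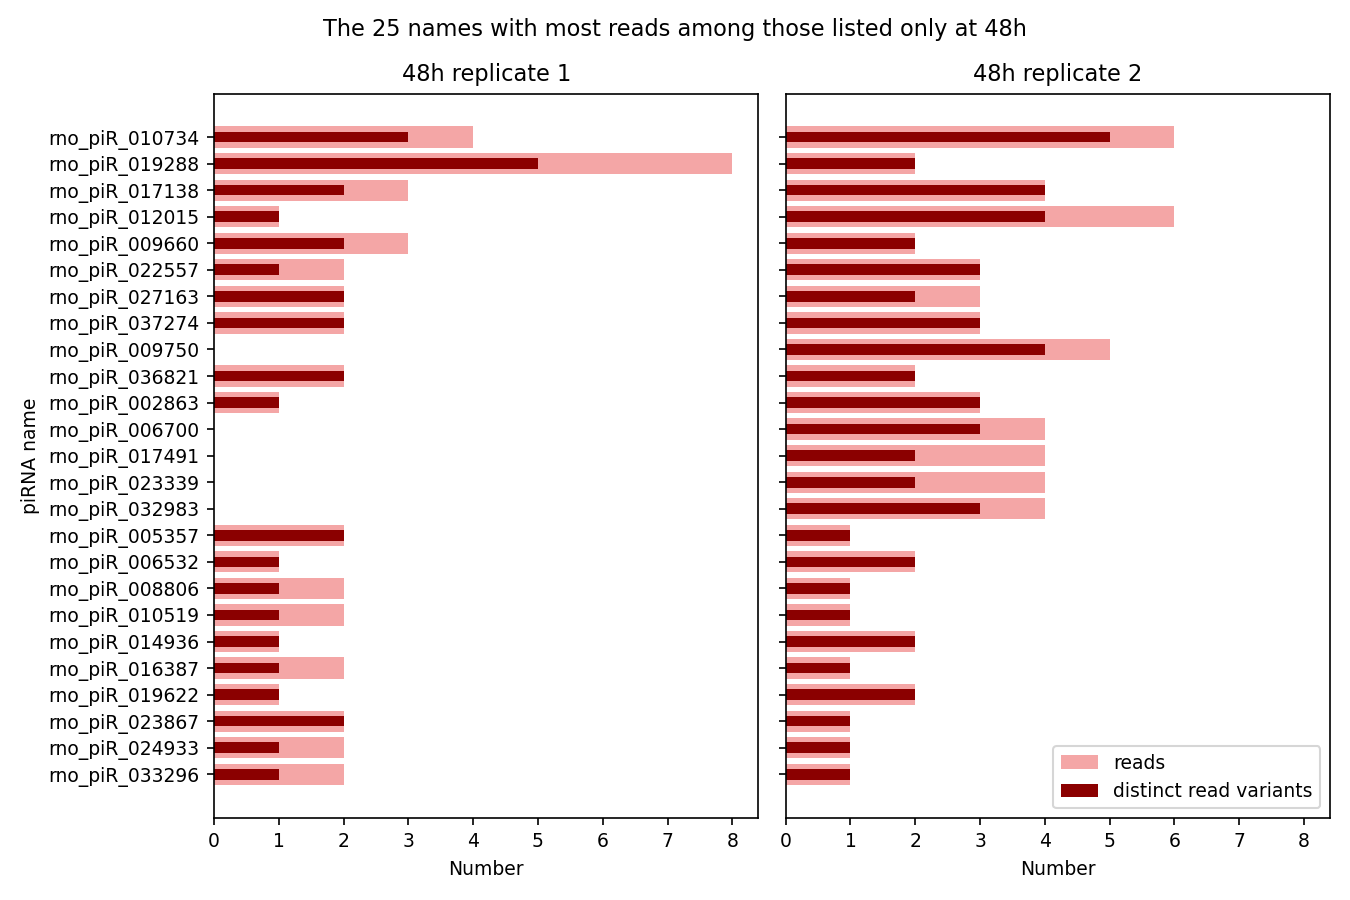
Reads (wide pale bars) and distinct read sequences (narrow dark bars) of the 25 members with most reads, in 48h replicate 1 (left) and 48h replicate 2 (right); the horizontal axis is a number of reads or of sequences. The counts run from 8 reads of rno_piR_019288 in replicate 1 down to 1, and 5 of the 25 names have no bar in replicate 1.

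For most members the counts were too low to separate absence elsewhere from lack of depth. A single read over both 48h libraries is 0.0192 RPM, with a 95% Poisson interval of 0.000485 to 0.107 RPM that includes the 0.0111 RPM allowed by 0 reads in the other 10 libraries. Depth therefore cannot show that the 137 single-read names were rarer elsewhere. The same holds for the 59 names with 2 reads, at 0.0383 RPM (95% Poisson interval 0.00464 to 0.138). In all, the interval reached down to that limit for 196 of the 227 names, and for 212 when scaled to listed piRNA reads. For names with more reads, the counts that could show it are those that chose them, and no statement is drawn from them. That none of the 227 had enough reads for a count test is a related limit: 80 of the 701 names passed edgeR's filter on low counts, and 0 of the members did.

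The boundary of the list was a matter of single reads. Just outside it, 63 names had reads at 48h and exactly 1 read in all elsewhere, which lay in a pre_PH library for 40 of them, at 24h for 9 and at 168h for 14. Of these 63 names, 17 were found in both 48h libraries and 26 had a single read at 48h. The 5 with most reads were rno_piR_032449 (2 and 13 reads in 48h replicates 1 and 2), rno_piR_026627 (2 and 6), rno_piR_003176 (3 and 4), rno_piR_008075 (2 and 4) and rno_piR_019860 (4 and 2). The first of these had more reads at 48h than any member. Just inside the rule stood the 137 names with a single read.

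The number of distinct read sequences behind a name was not used by the rule, but the rule chose the names it was counted over. The members' 143 reads in replicate 1 were of 113 sequences, and the 243 reads in replicate 2 of 213, counted name by name. Of the members with 2 or more reads in a library, 12 of 34 in replicate 1 (35.3%, 95% Clopper-Pearson interval 19.7 to 53.5%) and 35 of 52 in replicate 2 (67.3%, 52.9 to 79.7%) had at least 2 distinct sequences. In 7 and 25 of these cases each read was a different sequence. The files give the number of sequences but not the letters, so what distinguished them was not analysed here.

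Names listed only in another group almost always consisted of 1 sequence. Of 58 cases with 2 or more reads in a library of pre_PH, 24h or 168h, 2 had a second sequence, 1 in pre_PH replicate 6 and 1 in 24h replicate 2. At exactly 2 reads, where the number of reads is matched, both reads differed in 6 of 27 members in replicate 1 and 21 of 38 in replicate 2, against 2 of 49 cases in the other groups. The cases come from names of a few libraries and are not independent replicates, and the rule's read counts chose both lists. A name of another group had to be absent from both 48h libraries, which listed 328 and 446 names. The other libraries listed 128 to 216 names each, so the lists passed unequal filters. The difference between the lists was therefore not tested, and no conclusion about the members is drawn from it.

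Over all names with 2 to 5 reads in a library, members included, 61.5% (67 of 109) in 48h replicate 1 and 77.8% (105 of 135) in replicate 2 had 2 or more distinct sequences. The share was 33.3% to 64.9% in the 6 pre_PH libraries (47.7% ± 11.0, SD, n = 6), 31.6% and 51.3% at 24h, and 34.7% and 49.3% at 168h. Replicate 2 at 48h lay above all other libraries, and replicate 1 within the pre_PH range. The 48h mean of 69.6% ± 11.5 (SD, n = 2) was 21.9 percentage points above pre_PH and did not pass (exact two-sided permutation p = 0.107, adjusted p = 0.321 over the 3 times). Without 48h replicate 2 the difference was 13.7 points (exact permutation adjusted p = 0.536). At 24h and 168h it was -6.29 and -5.74 points (exact permutation adjusted p = 0.536 each). This measure was chosen after the data were seen. Members made up 33 of the 109 and 50 of the 135 names at 48h and are absent elsewhere by the rule. The test is therefore not independent of the selection, and no conclusion is drawn from it.

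The same share was taken over names listed in 2 or more groups, a choice that rests on the read counts the rule used. It took out 33 of 109 and 50 of 135 names with 2 to 5 reads in 48h replicates 1 and 2. In pre_PH it took out fewer: 61 of 73 remained in replicate 5, which lost most. The share was then 73.7% (56 of 76) and 84.7% (72 of 85) in 48h replicates 1 and 2, and 39.1% to 70.6% in pre_PH (54.1% ± 11.4, SD, n = 6). Both 48h libraries lay above the 6 pre_PH libraries, by 25.05 points in the mean (exact two-sided permutation p = 0.0357, the smallest that 28 splits can give, adjusted p = 0.107). That difference did not pass the correction either. As the set was chosen by the rule's own counts, this test is not independent of the selection, and no conclusion is drawn from it. Among the members with 2 to 5 reads the share was 33.3% in replicate 1 (11 of 33) and 66.0% in replicate 2 (33 of 50), lower in each library than among the names of 2 or more groups. At exactly 2 reads, the names of 2 or more groups stood at 48.5% and 65.7% in 48h replicates 1 and 2. Replicate 1 then lay below pre_PH replicate 3, at 53.3%, and only replicate 2 lay above all 6 pre_PH libraries. The separation of both 48h libraries from pre_PH was thus not kept with the number of reads matched, and this narrower set was not tested. At exactly 2 reads, all names stood at 36.7% and 60.3% in the 48h libraries and at 17.9% to 44.4% in pre_PH. Whether the members differ from other names in this respect was not tested.

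**Figure D4:**
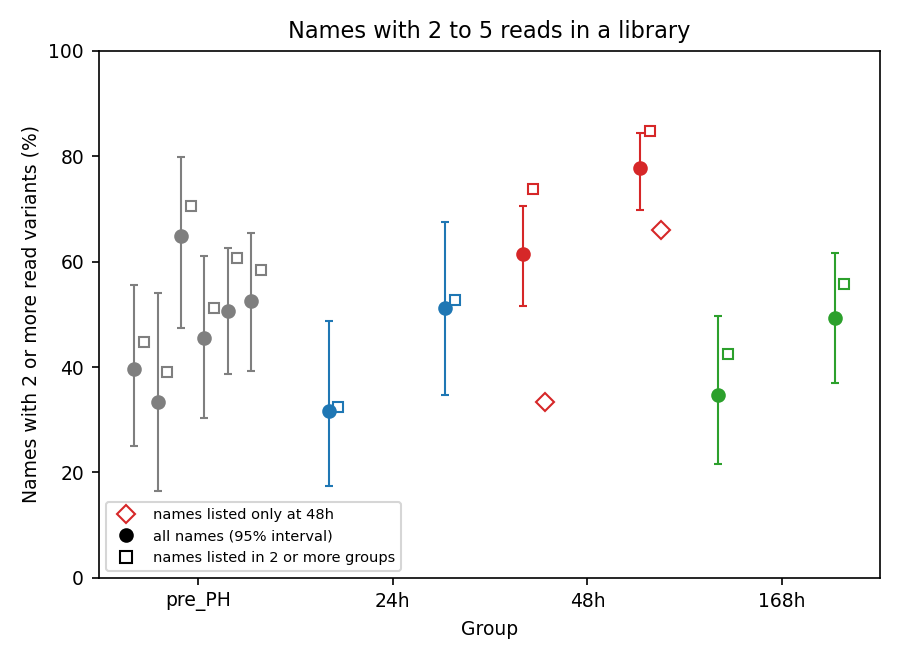
Share of piRNA names with 2 to 5 reads in a library that had 2 or more distinct read sequences, by group. Filled circles are libraries over all names, with 95% Clopper-Pearson intervals; open squares leave out the names listed in a single group; open diamonds are the names listed only at 48h, at 33.3% and 66.0%. Over all names 48h replicate 1, at 61.5%, lies within the pre_PH range of 33.3% to 64.9%, and replicate 2, at 77.8%, above it.

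For names common to the whole series, no difference in sequence diversity between 48h and pre_PH passed the correction. The 61 names found in all 12 libraries had 12.4 distinct sequences per 1000 reads in 48h replicate 1 and 7.67 in replicate 2, against 4.29 to 10.4 in pre_PH (7.88 ± 2.23, SD, n = 6). One 48h library lay above the pre_PH range and one within it. The difference in mean log2 value was 0.36 (exact two-sided permutation p = 0.393, adjusted p = 0.643 over the 3 times). At 24h it was 0.17 and at 168h 0.32 (exact permutation adjusted p = 0.679 and 0.643). These names had 119514 reads in 48h replicate 1 and 249797 in replicate 2, and the part of depth in this value was not tested.

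The members were scattered over the database numbering. Their numbers ran from 82 to 38445 with a median of 14705, and 83 of the 227 (36.6%) lay below 10000. Names listed only in the other groups had a like spread (55 of 153, 35.9% below 10000), whereas 45 of the 61 names found in all libraries (73.8%) and 310 of all 701 (44.2%) lay there. Members made up between 24.3% and 43.4% of the listed names in each band of 5000 numbers, lowest in the band up to 4999 and highest in that from 20000 to 24999. Members with adjoining numbers were rare: only rno_piR_001049 (1 read in replicate 2) and rno_piR_001051 (2 reads in replicate 2) lay within 2 numbers of each other. Such neighbours were 0.881% of the members, 2.61% of the names listed only in another group, 3.28% of the names found in all libraries and 11.0% of all listed names. Each share counts neighbours within its own set, so these sets of unlike size (227, 153, 61 and 701 names) cannot be compared by it. Counting any listed name as a neighbour, 5.73% of the members had one. The numbers are names, and no genome position or origin is read from them.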

How the data were processed

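Small RNA was sequenced from 12 rat liver libraries. Per the file headers, the deposited tables give for each piRNA name a read count and a count of distinct read sequences, both raw. Another 2 deposited columns give the authors' percent of each name relative to all reads and to reads mapped to piRNAs; dividing the count by the percent gave each library's totals. What the totals count was taken from the columns' names; whether the first is before or after trimming is not given in the sources used here, which bears on every RPM value. The tools named, without a role, are DESeq 1.14.0, CASAVA 1.8 and cutadapt, and the build is rn4, per the submitters' processing notes. The aligner is not given in the sources used here, and neither is the handling of reads that fit more than 1 name, so near-identical names may share or split reads. The listed rows left out 0.0560% to 0.761% of reads mapped to piRNAs, which are not analysed here.

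A name not listed was taken as 0 reads. Members as a set were described without tests, but the share over names with 2 to 5 reads counted them in. Another 2 measures, of distinct sequences, were compared by exact two-sided permutation of libraries (28 splits of 2 against 6), with Benjamini-Hochberg adjustment over 3 times. Expected numbers at equal depth are hypergeometric. The low-count filter was filterByExpr of edgeR 4.0.16 in R 4.3.3; other work used Python 3.11.15 and scipy 1.17.1, with functions tested on simulated data. Intervals are at 95%. No pair of replicates agreed within sampling noise (chi-square tests). The members named are the 25 with most summed reads, ties broken by the lower count and then by name, the 5 with most distinct sequences in a library, which are among them, and the 5 leading names just outside the rule. The members and lists were chosen with earlier results of these data known. Sequences of the piRNAs and their genome positions were not used here.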

Additional observations from a re-analysis of the deposited data

Results flagged for a closer look

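A signal outside the listed rows was larger at 48h. Of the authors' total of reads mapped to piRNAs, 0.6634% (807 reads) in 48h replicate 1 and 0.7611% (1930 reads) in 48h replicate 2 were in no listed row, against 0.0560% to 0.2291% in the 6 pre_PH libraries. In each 48h library this remainder held more reads than the members did (143 and 243). In 168h replicate 1 it was 0.2297%, which is above the pre_PH range only in the fourth decimal. What the remainder holds was not analysed here, and its part in the number of names was not tested. None of 7 measures had a pre_PH library far from the others by Dixon's criterion, which chance meets in about 1 of 20 groups.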

How the results depend on the processing

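The number of members rested on single reads and, in part, on 48h replicate 2. Requiring at least 2, 3 or 5 summed reads left 90, 31 or 9 of the 227 names, and requiring 2 distinct sequences in a library left 40. Leaving out a library gave 96 to 246 names, the lowest without 48h replicate 2 and the highest without pre_PH replicate 5. Allowing 1 read elsewhere gave 290, and equal depth 170 with the 48h libraries reduced or, added after seeing the data, 186 with all libraries reduced. The names found in both 48h libraries fell from 33 to 8 with 2 reads required in each, and numbered 34 to 43 when one of the other 10 libraries was left out. On the scale of all library reads the members held 6.89 and 7.72 RPM; those found in both libraries held 0.0480% and 0.0242% of listed piRNA reads.

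The higher share of names with several sequences at 48h kept its direction in all alternatives, all added after seeing the data, at 13.7 to 33.2 percentage points, and passed in none (exact permutation adjusted p from 0.107 to 1). Leaving out a library gave 13.7 to 30.1 points. Every version counted the members or used a set chosen by the rule's counts, so no conclusion is drawn from them. The log2 difference in sequences per 1000 reads also kept its direction, with exact permutation adjusted p of 0.107 (per library read) to 1; leaving out a library gave 0.018 to 0.71, the lowest without 48h replicate 1. Labels gave libraries of different groups the same number without saying that they belong together, and over 61 names the deviations of same-numbered libraries from their group means correlated at 0.299 and 0.184 between pre_PH and 48h, 0.288 and -0.099 with 24h, and -0.431 and 0.074 with 168h. With a replicate block (numbers 1 and 2) the differences were 33.2 points and 0.062, in designs of 2 pairs that cannot reach a p under 0.5. Depth limits each single name, as given above.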
